A study of Homo sapiens with 9 samples.

Results

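Double-stranded RNA, a sign of viral infection, is sensed in human cells by a small set of proteins, and 9 of their genes were followed in TE13 cells, out of 60605 genes in the deposited table. The genes were chosen by symbol. They encode the RIG-I-like receptors DDX58 (RIG-I, now also named RIGI), IFIH1 (MDA5) and DHX58 (LGP2), the RIG-I ubiquitin ligase TRIM25, the shared adaptor MAVS, the endosomal receptor TLR3 with its adaptor TICAM1 (TRIF), the kinase EIF2AK2 (PKR) and the sensor of Z-form nucleic acids ZBP1. All 9 had 1 row each and passed the filter on low values, an average of 0.1 FPKM or more, which left 21395 genes to test.

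TE13 is an established line of human esophageal squamous cell carcinoma (ESCC). Poly(A)+ RNA was sequenced from cells that had received control siRNA or an siRNA against PARylator, either PARylator siRNA.1 or the second design, PARylator siRNA.2, in 3 libraries per group and 9 in all. PARylator is the long noncoding RNA LINC00885. Every group received an siRNA, itself a short RNA duplex, with a single control siRNA and no untransfected group, so that effects of a duplex's own sequence and of the knockdown cannot be told apart within either siRNA.

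In the cytosol, RIG-I and MDA5 bind foreign or misplaced double-stranded RNA and then engage MAVS on mitochondria, which passes the signal to kinases and transcription factors that induce interferons. LGP2 binds the same kind of RNA but lacks the signalling domains and modulates the others. TLR3 samples RNA in endosomes and signals through TRIF. PKR stops translation by phosphorylating eIF2α, and ZBP1 can start necroptosis through RIPK3. Several of these genes are themselves interferon-induced, which forms a positive loop. Epithelial cells are known to carry most of these sensors.

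The libraries held between 15337917 and 22559998 counts on genes, and libraries of the same group differed by more than sampling noise. LINC00885 was covered by 6, 7 and 12 counts with control siRNA, 4, 5 and 2 with siRNA.1 and 2, 0 and 4 with siRNA.2. At that depth its log2 fold change was -1.21 (SE 0.95, adjusted p = 0.376 by edgeR's quasi-likelihood test) with siRNA.1 and -2.33 (SE 1.01, adjusted p = 0.0659) with siRNA.2, and neither passed the test. All 10 epithelial markers were at 1 FPKM or more in each group. FPKM is the count scaled by exonic length and by the total count of the library. Of these markers, EPCAM and CDH1 are not particular to squamous epithelium. The sum of the 10 markers was 965 to 985 FPKM in the control libraries. It was lower in every PARylator siRNA library, at 764 to 794 in the siRNA.1 libraries and 755 to 773 in the siRNA.2 libraries. The single markers moved in both directions, by the same test at an adjusted p under 0.05. KRT5, a basal keratin, was at 0.275 and 0.389 of its control level, and KRT17, TP63, DSC3, SFN and CDH1 were also lower with both. KRT6A (log2 fold change 0.34 and 0.58), DSG3 (0.58 and 0.27) and EPCAM (0.44 and 0.45) were higher with both. KRT14 passed the test with neither. The 10 blood cell markers summed to between 5.54 and 6.63 FPKM with control siRNA. The sum was between 7.89 and 8.81 with siRNA.1 and between 7.41 and 8.73 with siRNA.2. Of these markers, 1 was at 1 FPKM or more with control siRNA and 3 with each PARylator siRNA. By the same test and threshold, LYZ (8.47-fold and 9.43-fold), PTPRC (4.44 and 4.35), FCER1G (5.32 and 7.44) and CSF1R (1.81 and 1.55) were higher with both. LAPTM5 was lower with both, at 0.595 and 0.480 of its control level. The B cell marker MS4A1 was at 0 throughout and the T cell marker CD2 at 0 with both PARylator siRNAs. The 8 dendritic cell markers summed to at most 1.54 FPKM in any library, with LILRA4, CLEC9A and XCR1 at 0 in all of them, and 8 fibroblast and 5 endothelial markers to at most 2.52 and 1.54 FPKM. Mitochondrial genes took 7.46% to 7.66% of the counts in the control libraries, 4.99% to 5.06% in the siRNA.1 libraries and 5.54% to 5.56% in the siRNA.2 libraries, and the part of the shifts in markers and mitochondrial genes in the results below was not tested.

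Compared with control siRNA, 7 members of this group of 9 were higher and 1 was lower with siRNA.1, at an adjusted p under 0.05, where 15.0% of all genes tested were higher and 15.2% lower (30.3% in either direction). With siRNA.2, 6 were higher and 1 lower, against 15.8% and 15.1% of all genes (30.9% in either direction). All 9 genes also averaged 1 FPKM or more. With the filter at that value, 5819 of 12532 genes were called with siRNA.1, of which 2866 were higher. With siRNA.2 it was 5913 of 12532, of which 2927 were higher. These shares are larger than those with the filter at 0.1 FPKM. The 6 genes higher with both siRNAs were ZBP1, IFIH1, DDX58, DHX58, EIF2AK2 and TRIM25, and MAVS was lower with both (all genes: 11.1% higher and 10.2% lower with both). The rises covered a wide range, from 4.38-fold for ZBP1 to 1.12-fold for EIF2AK2 with siRNA.1. When a log2 fold change of 1 or more in size was also required, ZBP1, IFIH1 and DDX58 remained with each siRNA, 3 of 9, where 3.96% of all genes passed with siRNA.1 and 4.02% with siRNA.2. Between the siRNAs none of the 9 passed this limit, and 0.608% of all genes did. For siRNA.1 the sensors and adaptors had a median log2 fold change of 0.31, and for siRNA.2 of 0.24, beside -0.00056 and 0.0040 over all genes tested. Both comparisons share the control libraries. In bulk RNA, a change in the number of cells that express a gene and a change in the RNA per cell cannot be told apart.

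**Figure D1:**
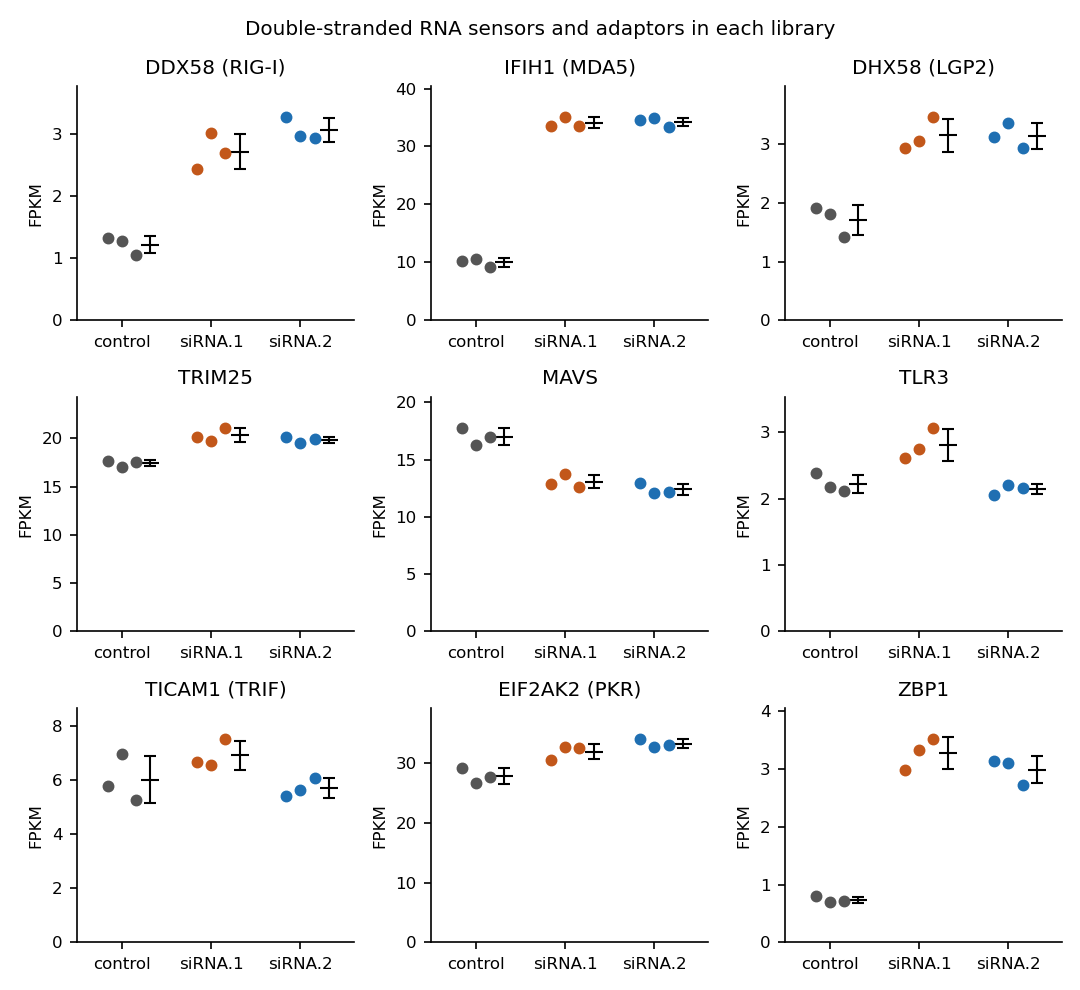
FPKM of the 9 genes in each library (points), with the mean and SD of the 3 libraries beside them, for control siRNA (grey), PARylator siRNA.1 (orange) and PARylator siRNA.2 (blue). Each panel has its own axis from 0. The control points of ZBP1, IFIH1, DDX58 and DHX58 lie below all points of both PARylator siRNAs, and those of MAVS above them.

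IFIH1, which encodes MDA5, the sensor of long double-stranded RNA, was the RIG-I-like receptor with the highest level and the largest rise. Its level was 10.2, 10.6 and 9.18 FPKM in the control libraries, 33.5, 35.2 and 33.6 with siRNA.1 and 34.5, 34.8 and 33.4 with siRNA.2. All 6 siRNA libraries lay far above the controls, and the siRNA groups overlapped. The gene (ENSG00000115267, GRCh38 chr2:162267074-162318684, minus strand) rose 3.35-fold with siRNA.1 (log2 fold change 1.74, SE 0.06, adjusted p = 5.96e-211) and 3.40-fold with siRNA.2 (1.77, SE 0.06, adjusted p = 4.78e-219). Between the siRNAs the log2 difference was 0.023 (SE 0.05, adjusted p = 0.867).

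DDX58, which encodes RIG-I, the sensor of short duplexes with a 5′ triphosphate, was much lower in level but also rose. Its level was 1.32, 1.28 and 1.06 FPKM with control siRNA, 2.44, 3.01 and 2.70 with siRNA.1 and 3.28, 2.97 and 2.93 with siRNA.2, from between 197 and 209 counts in the controls. No siRNA library overlapped with a control library, while the siRNA groups overlapped with each other. The gene (ENSG00000107201, chr9:32455302-32526208, minus strand) rose 2.19-fold with siRNA.1 (log2 1.13, SE 0.10, adjusted p = 1.88e-25) and 2.49-fold with siRNA.2 (log2 1.32, SE 0.10, adjusted p = 3.80e-36). Its exons share 4471 bases on the same strand with the gene ENSG00000288684, which held 9.22 counts on average beside 441 for DDX58. How reads that fall in both were counted is not given in the sources used here, so the level of DDX58 may be understated.

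DHX58, which encodes LGP2, had 1.91, 1.80 and 1.42 FPKM with control siRNA, 2.93, 3.04 and 3.46 with siRNA.1 and 3.12, 3.35 and 2.92 with siRNA.2. The controls again lay below all siRNA libraries. The gene (ENSG00000108771, chr17:42101404-42112714, minus strand) rose 1.82-fold with each siRNA (log2 0.86 and 0.87, SE 0.15 and 0.15, adjusted p = 7.94e-08 and 3.50e-08). The siRNAs differed by 0.0066 on the log2 scale (SE 0.14, adjusted p = 0.993).

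IFIH1 gained on both other receptors, as read from the ratio of FPKM within each library, given as a description without a test. IFIH1 over DDX58 was 8.23 ± 0.467 in the controls (SD, n = 3), and rose to 12.6 ± 1.04 in the siRNA.1 libraries and 11.2 ± 0.627 in the siRNA.2 libraries. IFIH1 over DHX58 went from 5.91 ± 0.560 to 10.9 ± 1.04 and 11.0 ± 0.532. In both ratios every siRNA library was above every control library. The ratios depend on the gene lengths used: with the length of the canonical transcript in place of all exonic bases, IFIH1 over DDX58 was 5.24 with control siRNA and 8.04 and 7.15 with the siRNAs, since the exons of DDX58 add up to 10345 bases and its canonical transcript to 4628.

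**Figure D2:**
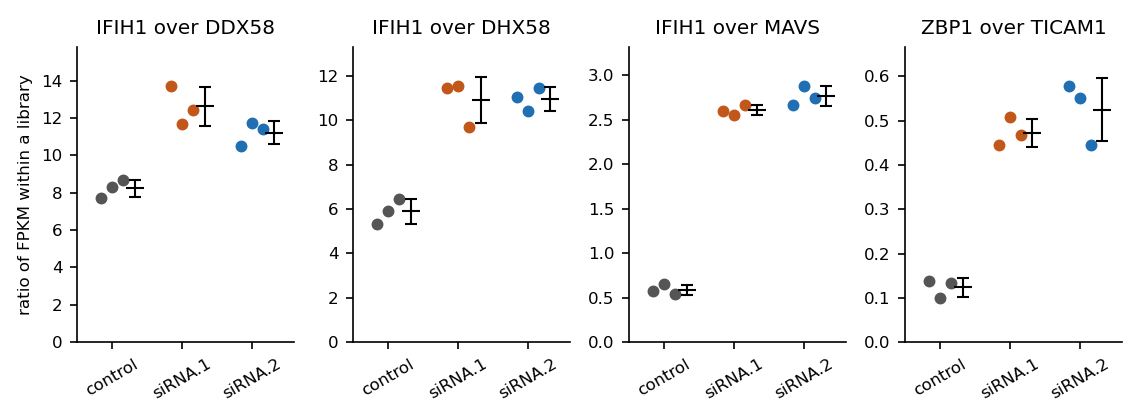
Ratio of the FPKM of 2 genes within each library (points) with mean and SD of the 3 libraries, for control siRNA (grey), siRNA.1 (orange) and siRNA.2 (blue), with axes from 0. IFIH1 over MAVS shows the widest gap, with controls near 0.590 and siRNA libraries near 2.61 and 2.77.

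The promoters of IFIH1 and DDX58 are shown because these receptors rose most and because interferon-induced genes often carry an interferon-stimulated response element (ISRE), bound by the ISGF3 complex and by IRF factors. The window from 250 bases before to 50 after each RefSeq start (GRCh38.p14) was searched on both strands for GAAANNGAAA and for GNAANNGAAA, a looser form that contains the first. Of 35116 promoters, 3.57% held the first and 8.03% the second. The motifs were chosen after the levels of these genes were known, and 7 of the 9 genes had a promoter entry. Capitals mark matches to GNAANNGAAA or their reverse complement, positions are counted from 1 at the first transcribed base, and a match is a description of letters only. IFIH1 held 3 matches, at -159, -153 and -21, of which the first 2 overlap, all 3 of them also matches to the strict form. DDX58 held 1, at -204, to the looser form alone. Both windows are printed in the direction of transcription, which is the minus strand.
IFIH1 promoter, chr2:162318655-162318888: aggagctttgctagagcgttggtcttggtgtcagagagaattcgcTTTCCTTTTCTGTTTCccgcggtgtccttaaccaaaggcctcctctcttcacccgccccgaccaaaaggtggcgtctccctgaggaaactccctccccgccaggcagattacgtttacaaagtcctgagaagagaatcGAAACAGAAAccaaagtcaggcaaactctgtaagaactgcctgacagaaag
DDX58 promoter, chr9:32526346-32526445: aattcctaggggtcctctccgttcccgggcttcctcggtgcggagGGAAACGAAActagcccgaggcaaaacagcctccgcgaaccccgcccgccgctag

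TRIM25, a ubiquitin ligase that modifies RIG-I and lets it signal, changed little beside the receptors. Its level was 17.7, 17.1 and 17.6 FPKM with control siRNA, 20.1, 19.7 and 21.1 with siRNA.1 and 20.1, 19.5 and 19.9 with siRNA.2. Neither siRNA group overlapped with the control, and the shift was small but larger than the spread between libraries. The gene (ENSG00000121060, chr17:56836387-56914080, minus strand) rose 1.14-fold with siRNA.1 (log2 0.19, SE 0.05, adjusted p = 0.000141) and 1.13-fold with siRNA.2 (log2 0.17, SE 0.05, adjusted p = 0.000594). TRIM25 over DDX58 fell from 14.4 ± 1.86 (SD, n = 3) to 7.54 ± 0.877 and 6.50 ± 0.340 FPKM per FPKM. RNF135 (Riplet), another ligase that acts on RIG-I, was not called, with log2 fold changes of -0.22 (adjusted p = 0.255) and -0.081 (adjusted p = 0.729). The TRIM25 promoter is shown because its match, to the looser form alone, spans the start, from -3 to 7.
TRIM25 promoter, chr17:56914020-56914097: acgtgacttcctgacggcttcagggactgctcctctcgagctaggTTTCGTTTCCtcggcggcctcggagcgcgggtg

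MAVS, the mitochondrial adaptor on which RIG-I and MDA5 converge, went the other way. Its level was 17.8, 16.3 and 16.9 FPKM with control siRNA, 12.9, 13.8 and 12.6 with siRNA.1 and 12.9, 12.1 and 12.2 with siRNA.2. Every siRNA library was below every control library. The gene (ENSG00000088888, chr20:3846799-3876123, plus strand) was lower with siRNA.1, at 0.755 of the control level (log2 -0.41, SE 0.05, adjusted p = 2.46e-15), and lower with siRNA.2, at 0.723 (log2 -0.47, SE 0.05, adjusted p = 2.27e-20), with no call between the siRNAs (log2 -0.061, SE 0.05, adjusted p = 0.525). Its promoter window held neither form of the ISRE.

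IFIH1 passed its adaptor in level. IFIH1 over MAVS was 0.590 ± 0.0574 in the controls (SD, n = 3), 2.61 ± 0.0547 in the siRNA.1 libraries and 2.77 ± 0.110 in the siRNA.2 libraries, as FPKM over FPKM. DDX58 over MAVS was 0.0718 ± 0.00831, 0.207 ± 0.0159 and 0.247 ± 0.00659. With canonical transcript lengths IFIH1 over MAVS was 0.836, 3.70 and 3.92, so that IFIH1 was below MAVS in the controls and above it with the siRNAs on either length.

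TLR3, the endosomal receptor, was the only one of the 9 genes called between the siRNAs. Its level was 2.38, 2.18 and 2.12 FPKM with control siRNA, 2.61, 2.74 and 3.07 with siRNA.1 and 2.06, 2.21 and 2.16 with siRNA.2. The siRNA.1 libraries lay above both other groups, which overlapped. The gene (ENSG00000164342, chr4:186069155-186088073, plus strand) rose 1.24-fold with siRNA.1 (log2 0.31, SE 0.12, adjusted p = 0.0286) and had a log2 fold change of -0.067 with siRNA.2 (SE 0.12, adjusted p = 0.739). With siRNA.2 it was at 0.772 of its level with siRNA.1 (log2 -0.37, SE 0.11, adjusted p = 0.0116), 1 lower of 9 where 6.06% of all genes were lower and 6.10% higher. The rise with siRNA.1 lost its call without control replicate 2 (log2 0.29, adjusted p = 0.0772), control replicate 3 (0.27, adjusted p = 0.112) or siRNA.1 replicate 3 (0.23, adjusted p = 0.194). The difference between the siRNAs lost its call without siRNA.1 replicate 3 (log2 -0.30, adjusted p = 0.140) or siRNA.2 replicate 1 (log2 -0.34, adjusted p = 0.0688).

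TICAM1, which encodes TRIF, the adaptor of TLR3, was not called in any comparison. Its level was 5.78, 6.96 and 5.27 FPKM with control siRNA, 6.67, 6.54 and 7.53 with siRNA.1 and 5.40, 5.62 and 6.09 with siRNA.2. The wide control group overlapped with both siRNA groups, while the siRNA.2 libraries all lay below the siRNA.1 libraries. The gene (ENSG00000127666, chr19:4815932-4831712, minus strand) had log2 fold changes of 0.18 (SE 0.11, adjusted p = 0.246) with siRNA.1, -0.078 (SE 0.11, adjusted p = 0.677) with siRNA.2 and -0.26 (SE 0.11, adjusted p = 0.122) between them. The ratio of TLR3 to TICAM1 stayed near its control value of 0.376 ± 0.0544 (SD, n = 3), being 0.406 ± 0.0139 in the siRNA.1 libraries and 0.376 ± 0.0198 in the siRNA.2 libraries.

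The promoters of this receptor and its adaptor differ in the motifs they hold, and are printed for that contrast. TLR3 held 1 strict ISRE match, from -4 to 6, in capitals below. TICAM1 held no ISRE match of either form, and its capitals mark a match to GGGNNNTTCC, a short form of the NF-kB site found in 6.52% of the promoters, from -120 to -111. DDX58 and IFIH1 also held 1 match to that form each. TLR3 held 2 matches to TTCNNNGAA, the GAS element of interferon-gamma responses (7.66% of promoters).
TLR3 promoter, chr4:186069107-186069185: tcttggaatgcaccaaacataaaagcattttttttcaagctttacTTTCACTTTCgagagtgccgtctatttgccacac
TICAM1 promoter, chr19:4831778-4831877: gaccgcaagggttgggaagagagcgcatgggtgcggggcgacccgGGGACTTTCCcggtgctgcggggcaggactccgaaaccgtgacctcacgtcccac

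EIF2AK2, which encodes PKR, had the highest FPKM of the 9 genes in the control libraries and a small rise. With canonical transcript lengths TRIM25 was above EIF2AK2 in the controls, at 37.7 against 30.9 on average. The level of EIF2AK2 was 29.3, 26.7 and 27.8 FPKM with control siRNA, 30.5, 32.8 and 32.6 with siRNA.1 and 34.2, 32.7 and 33.0 with siRNA.2. Controls lay below both siRNA groups by a narrow margin. The gene (ENSG00000055332, chr2:37099210-37157522, minus strand) rose 1.12-fold with siRNA.1 (log2 0.17, SE 0.04, adjusted p = 0.000432) and 1.18-fold with siRNA.2 (log2 0.24, SE 0.04, adjusted p = 7.25e-08), with a log2 difference of 0.076 between the siRNAs (SE 0.04, adjusted p = 0.286). Its promoter, shown for a gene with a small rise, held 1 strict ISRE match from -6 to 4.
EIF2AK2 promoter, chr2:37156951-37157031: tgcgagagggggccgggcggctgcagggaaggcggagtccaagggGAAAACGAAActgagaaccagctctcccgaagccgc

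ZBP1, which binds Z-form RNA and DNA and can recruit RIPK3, had the lowest control level and the largest fold. Its level was 0.80, 0.69 and 0.71 FPKM with control siRNA, from 66, 58 and 69 counts. It was 2.97, 3.32 and 3.52 FPKM with siRNA.1 and 3.13, 3.10 and 2.71 with siRNA.2, from 276 to 335 counts. Every siRNA library was at least 3 times the highest control. The gene (ENSG00000124256, chr20:57603846-57620576, minus strand) rose 4.38-fold with siRNA.1 (log2 2.13, SE 0.15, adjusted p = 1.37e-45) and 4.03-fold with siRNA.2 (log2 2.01, SE 0.15, adjusted p = 3.95e-41). The log2 difference between the siRNAs was -0.12 (SE 0.12, adjusted p = 0.646). The summed blood cell markers moved in the same direction, within the ranges given above, and their part in the rise of ZBP1 was not tested. The products of ZBP1 and TICAM1 share the RHIM domain. ZBP1 over TICAM1 was 0.124 ± 0.0217 in the controls (SD, n = 3), as FPKM over FPKM. This ratio was 0.473 ± 0.0316 in the siRNA.1 libraries and 0.525 ± 0.0710 in the siRNA.2 libraries. With canonical transcript lengths it was 0.313, 1.19 and 1.33. ZBP1 was thus below TICAM1 in the controls on either length, and with the siRNAs its side depends on the length used.

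**Figure D3:**
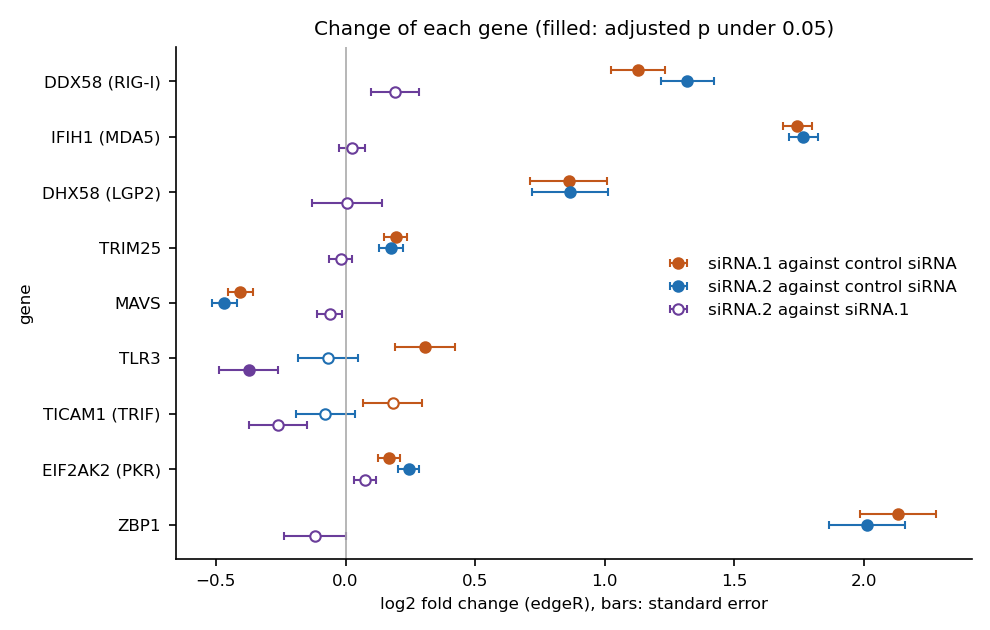
Log2 fold change of each gene with its standard error (edgeR), for siRNA.1 against control (orange), siRNA.2 against control (blue) and siRNA.2 against siRNA.1 (purple). Filled points had an adjusted p under 0.05. ZBP1, IFIH1, DDX58 and DHX58 lie well to the right for both siRNAs, MAVS to the left, and the single filled purple point is TLR3 at -0.37.

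By FPKM, the order of the levels in the control libraries was EIF2AK2, then TRIM25 and MAVS, which overlapped, then IFIH1, TICAM1, TLR3, DHX58, DDX58 and ZBP1, each apart from the next. With siRNA.1 IFIH1 came first, apart from EIF2AK2 by a narrow gap, then TRIM25, MAVS and TICAM1, and ZBP1, DHX58, TLR3 and DDX58 overlapped from each to the next at the end. With siRNA.2 IFIH1 and EIF2AK2 overlapped at the top, DHX58, DDX58 and ZBP1 overlapped below TICAM1, and TLR3 was last and apart. By FPKM, ZBP1 therefore went from last place to the level of the low receptors. With canonical transcript lengths TRIM25 led in the controls and IFIH1 still led with both siRNAs. On these lengths DDX58, DHX58 and TLR3 overlapped from each to the next in the controls. ZBP1 was then last in the controls and in place 5 by mean with both siRNAs. It overlapped with the next gene, TICAM1 with siRNA.1 and DDX58 with siRNA.2. The order of the low genes thus depends on the length used.

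The libraries of an siRNA group did not overlap with the controls for 8 of 9 genes with siRNA.1 and 7 of 9 with siRNA.2, where the same held for 37.7% and 39.6% of all genes tested. Between the siRNAs it held for TLR3 and TICAM1, 2 of 9, and for 24.4% of all genes. Over the 9 libraries, which share 3 group means, the log2 levels of IFIH1 had a Pearson r of 0.992 with ZBP1, 0.982 with DDX58 and -0.970 with MAVS. TLR3 had an r of 0.741 with TICAM1 and 0.307 with IFIH1. These values describe the libraries and follow mostly from the differences between groups.

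Among 11859 genes that averaged 1 FPKM or more, those most like IFIH1 over the 9 libraries included MX1 and PODXL2 (r = 0.998 each), and 494 genes had an r of at least 0.95. Those most like ZBP1 were PTGS2, ADGRL1 (0.998 each) and PLSCR1 (0.997), with 447 genes at 0.95 or more. DDX58 was closest to C22orf46, MAP3K21 (0.993 each) and CXCL10 (0.992), with 269 such genes. The genes closest to DHX58 included SH3KBP1 (0.990) and LY6E-DT (0.984), with 161. MAVS was closest to MECOM and SUN1 (0.995 each) and ST6GALNAC2 (0.994), with 230. Few genes followed TLR3 and TICAM1 this closely. TLR3 had 4 genes at 0.95 or more, led by ANXA3 (0.974), KIAA1549 and THSD4 (0.957 each), and TICAM1 had 1, MIOS-DT (0.985), followed by CRCP (0.926) and MTX2 (0.894). EIF2AK2 (37 genes) was closest to FAHD2A (0.990), GID4 (0.981) and FOXN2 (0.979), and TRIM25 (86 genes) to PDHX (0.985), CCDC57 (0.982) and CEBPZ (0.980).

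The partners of these sensors moved in both directions, described here for 9 lists that hold 157 genes, with the value for siRNA.1 given before that for siRNA.2. Among 34 cofactors and regulators of the RIG-I-like receptors, 7 were higher and 6 lower with siRNA.1 and 8 higher and 6 lower with siRNA.2, with a median log2 fold change of 0.0082 and 0.028. These 13 and 14 calls of 34 stand beside 30.3% and 30.9% of all genes tested (15.0% higher and 15.2% lower with siRNA.1, 15.8% and 15.1% with siRNA.2). Among genes averaging 1 FPKM or more the shares were larger, 5819 of 12532 with siRNA.1 and 5913 of 12532 with siRNA.2. The counts of every list here are to be read against both backgrounds. IFIT3, which bridges MAVS and TBK1, rose most, from 28.4 FPKM to 130.5 and 113.4 (log2 2.17 and 1.98, SE 0.04 each). NLRC5, a regulator of RIG-I-like receptor signalling and of MHC class I, rose by 0.93 and 0.58 log2 units, and ZCCHC3, a co-receptor for RNA, by 0.50 and 0.26 log2 units. ATG5, whose conjugate with ATG12 restrains the pathway, was lower with each siRNA (log2 -0.48 and -0.37). PPP1CA, a catalytic subunit of the phosphatase that activates RIG-I and MDA5, was also lower with each (log2 -0.39 and -0.24). PPP1CC, another catalytic subunit in this list, was higher with each (log2 0.18 and 0.25).

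Of 24 kinases, TRAFs and IRFs downstream of MAVS and TRIF, 3 were higher and 8 lower with siRNA.1, and 2 higher and 7 lower with siRNA.2 (median log2 fold changes -0.015 and -0.099). Higher with both siRNAs were TRAF3, a ubiquitin ligase needed for interferon induction (log2 0.40 and 0.53), and TAB1, a partner of the kinase TAK1 (log2 0.34 and 0.34). TANK, a scaffold of TBK1 (log2 -0.44 and -0.22), the interferon regulatory factor IRF1 (log2 -0.31 and -0.24) and MAP3K1 (log2 -0.29 and -0.26) were lower. MAP3K7, which encodes TAK1 itself, was also lower with both (log2 -0.32, adjusted p = 6.56e-05, and -0.22, adjusted p = 0.00551). TBK1, IKBKE and IRF3, which carry the signal to the interferon genes, were not called with either siRNA. TBK1 had log2 fold changes of -0.024 (adjusted p = 0.827) and -0.10 (adjusted p = 0.189), IKBKE 0.082 (adjusted p = 0.394) and 0.0053 (adjusted p = 0.975), and IRF3 0.11 (adjusted p = 0.119) and 0.080 (adjusted p = 0.291). IRF7, an interferon-induced member of the family, was covered by 1 to 10 counts in any library, and no difference was detectable at this depth (log2 -0.15, adjusted p = 0.936, and -0.41, adjusted p = 0.787).

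Of the TLR3 trafficking and signalling list, 15 of 18 genes could be tested, with 2 higher and 4 lower with siRNA.1 and 5 higher and 7 lower with siRNA.2 (median log2 fold changes -0.12 and -0.24). UNC93B1, which carries TLR3 to endosomes, rose from 17.6 FPKM to 23.7 and 22.3 (log2 0.40, adjusted p = 2.32e-09, and 0.33, adjusted p = 1.10e-06). CTSL, an endosomal protease, rose by 0.52 and 0.58 log2 units, while its relative CTSB had a log2 fold change of -0.24 and -0.44. S100A9, a calcium-binding protein abundant in squamous cells, fell from 60.4 FPKM to 21.6 and 14.5 (log2 -1.51 and -2.06). WDFY1, which helps bring TRIF to TLR3, was lower with both (log2 -0.15 and -0.31).

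Around ZBP1, of 10 RHIM and necroptosis partners 1 was higher and 5 lower with siRNA.1, and 3 were higher and 5 lower with siRNA.2 (median log2 fold changes -0.32 and -0.26). RIPK3, the kinase that ZBP1 recruits, was at 0.943, 0.637 and 0.660 FPKM in the 3 groups and was not called (log2 -0.59, adjusted p = 0.122, and -0.53, adjusted p = 0.161). MLKL, the executor of necroptosis, had a log2 fold change of 0.062 (adjusted p = 0.636) with siRNA.1 and rose by 0.24 log2 units (adjusted p = 0.0122) with siRNA.2. CFLAR, an inhibitor of caspase-8, rose by 0.46 and 0.59 log2 units. BIRC3 (log2 -0.48 and -0.71) and XIAP (log2 -0.48 and -0.38), inhibitor of apoptosis proteins, and the protease CASP6 (log2 -0.34 and -0.45) were lower with both.

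Around PKR, 7 of 16 genes were higher and 3 lower with each siRNA, the same genes in both (median log2 fold changes 0.14 and 0.10). EIF2S1, which encodes eIF2α, the PKR substrate, rose by a log2 fold change of 0.28 (adjusted p = 1.17e-08) and 0.26 (adjusted p = 4.75e-08). DDIT3 (CHOP), a transcription factor induced after eIF2α phosphorylation, rose from 5.48 FPKM to 13.0 and 11.9 (log2 1.22 and 1.11). PPP1R15A (GADD34), which helps remove that phosphate, rose by 0.79 and 0.67 log2 units, and THAP12 by 0.58 and 0.51 log2 units. EIF2AK1, EIF2AK3 and EIF2AK4, the other eIF2α kinases in the list, were called with neither siRNA. The part of PKR or of these kinases in the rises of DDIT3 and PPP1R15A was not tested. PPP1R15B (log2 -0.35 and -0.41), the constitutive counterpart of PPP1R15A, the PKR inhibitor DNAJC3 (log2 -0.35 and -0.29) and the adaptor NCK1 (log2 -0.25 and -0.24) were lower. The PKR activator PRKRA had log2 fold changes of -0.065 (adjusted p = 0.619) and 0.058 (adjusted p = 0.662), and TARBP2, which inhibits PKR, 0.18 (adjusted p = 0.197) and 0.15 (adjusted p = 0.277).

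Of the other RNA helicases and RNA sensors, 17 of 20 could be tested, with 7 higher and 3 lower with siRNA.1 and 8 higher and 2 lower with siRNA.2 (median log2 fold changes 0.091 and 0.12). DDX60L rose most (log2 1.95 and 1.61), to 15.7 and 12.3 FPKM, its relative DDX60 by 0.48 and 0.65 log2 units, and the mitochondrial RNA sensor ZNFX1 by 0.58 and 0.25 log2 units. DDX60 and DDX60L are close paralogs, and how reads were split between them is uncertain. DDX3X, a general RNA helicase, had a log2 fold change of -0.43 and -0.26. Of 15 genes that limit self double-stranded RNA, 5 were higher and 2 lower with siRNA.1 and 6 higher and 2 lower with siRNA.2 (median log2 fold changes 0.035 and 0.054). ADAR, which edits double-stranded RNA and keeps MDA5 from sensing it, rose from 55.5 FPKM to 75.7 and 76.7 (log2 0.42, adjusted p = 6.39e-30, and 0.45, adjusted p = 3.69e-35). PNPT1, which degrades mitochondrial RNA, rose by 0.80 and 0.93 log2 units, and SLIRP by 0.39 and 0.36 log2 units. STAU2, a double-stranded RNA binding protein, was lower (log2 -0.48 and -0.46).

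The OAS enzymes OAS1, OAS2 and OAS3 also sense double-stranded RNA, and make 2′-5′ oligoadenylate. OAS1, OAS2, OAS3 and OASL were higher with both siRNAs, from a log2 fold change of 2.37 and 2.16 for OAS1 to 1.32 and 1.22 for OAS3. Of the 14 genes of cytosolic DNA sensing, 13 could be tested, with 5 higher and 3 lower with siRNA.1 and 7 higher and 2 lower with siRNA.2 (median log2 fold changes 0.14 and 0.23). IFI16 (log2 1.09 and 0.98) and AIM2 (log2 0.84 and 0.94), DNA-binding sensors, and SAMHD1 (log2 0.81 and 0.87), which hydrolyses nucleotides, were higher. XRCC5 (log2 -0.35 and -0.17) and MRE11 (log2 -0.15 and -0.24), which act in DNA break repair, were lower. CGAS, also in this list, had log2 fold changes of 0.034 (adjusted p = 0.774) and 0.23 (adjusted p = 0.00209). STING1 was not called with either siRNA (log2 0.17, adjusted p = 0.144, and -0.14, adjusted p = 0.248). Whether these lists differ from the 9 sensors and adaptors was not tested.

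**Figure D4:**
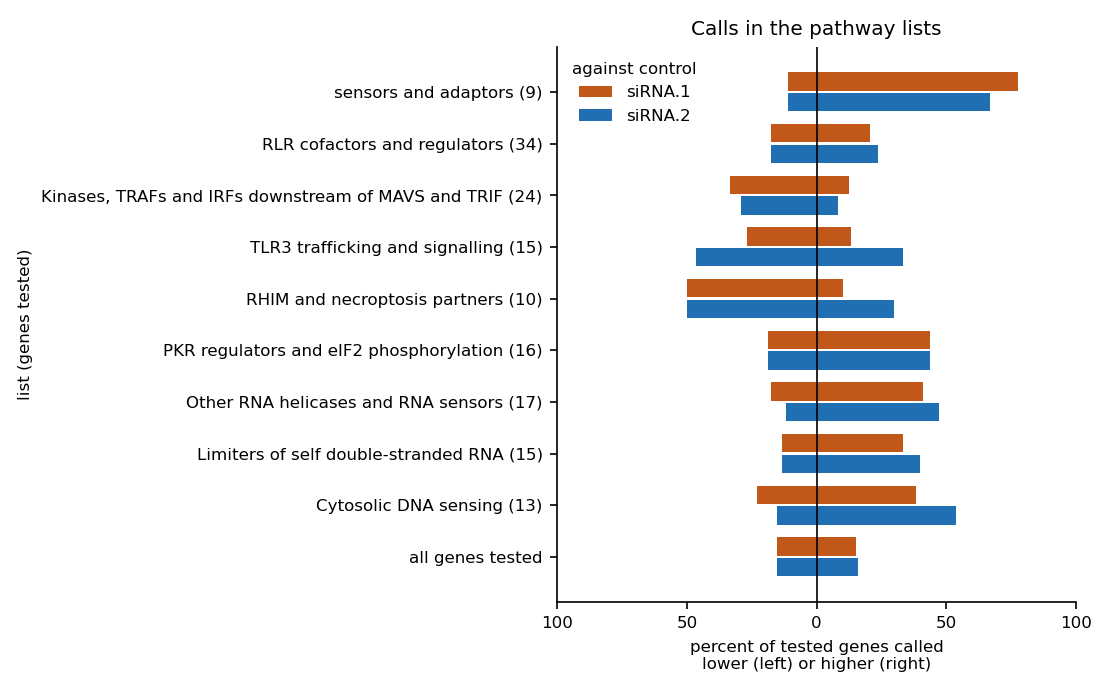
Percent of the tested genes of 8 lists and of the sensors and adaptors called higher (right of 0) or lower (left of 0) at an adjusted p under 0.05, for siRNA.1 (orange) and siRNA.2 (blue) against control siRNA, with the number of genes tested in parentheses and all genes tested in the last bars. The 9 sensors and adaptors have long bars to the right. The RHIM and necroptosis partners, the kinases and the TLR3 trafficking and signalling list have longer bars to the left than to the right.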

How the data were processed

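Libraries were grouped by their labels into control siRNA, PARylator siRNA.1 and PARylator siRNA.2, with 3 libraries each. The libraries are described as biological replicates and experimental repeats, with separate cultures not stated in the sources used here, so p-values measure the spread between these libraries. Per the submitters' processing notes and the methods, reads were aligned to GRCh38 with STAR and assigned to genes with featureCounts, with versions, annotation release and strandedness not given in the sources used here. The values deposited by the authors include the raw count of every gene, not normalized. The deposited FPKM are those counts scaled by exonic length and by each library's total on genes, and recomputing them gave the same values within 0.01 for 100% of them. Of the genes, 20014 have no symbol, and 60463 of the identifiers are in GENCODE release 44, used for canonical transcripts and overlaps.

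Counts were tested with edgeR 4.0.16 (R 4.3.3), quasi-likelihood, TMM scaling (factors 0.989 to 1.02), 1 fit of the 3 groups, without covariates, over 21395 genes averaging 0.1 FPKM or more, and p-values were adjusted by Benjamini-Hochberg and called under 0.05. The biological coefficient of variation was 0.0566. Standard errors were taken as the size of the log2 fold change over the square root of F. The scripts were tested on simulated data. The 9 genes, the lists and the motifs were chosen with earlier results of these data known. Named from each list were up to 3 genes per direction with the largest mean change of both siRNAs, among those called the same way with both and averaging 1 FPKM or more, 12 direct partners whatever their test, and for likeness the 3 genes with the highest r in log2 CPM (prior count 2). MS4A1, CD2, LILRA4, CLEC9A and XCR1 are named as markers at 0. OAS3, MAP3K7, PPP1CC, CGAS, STING1, EIF2AK1, EIF2AK3, EIF2AK4, the epithelial markers and the other blood cell markers were named after their values were seen. A few genes that met these criteria, and the counts of 1 list, are left out of the text. Alternatives were other scalings, DESeq2 1.42.0, limma 3.58.1 on log2(FPKM + 0.1) and log2(FPKM + 1), other filters, the 2 groups alone, a replicate block, each library left out and a limit on the fold. Summaries used pandas 2.3.3 and numpy 2.4.6 in Python 3.11.15. Promoter sequences are from RefSeq, GRCh38.p14.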

Additional observations from a re-analysis of the deposited data

Results flagged for a closer look

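TLR3 is singled out because its effect differed between the PARylator siRNAs by a direct test. It was higher with siRNA.1 and not called with siRNA.2, and the log2 difference between siRNA.2 and siRNA.1 was -0.37 (adjusted p = 0.0116, edgeR), with every siRNA.2 library below every siRNA.1 library. Over all alternatives the difference lay between -0.42 and -0.27, and its adjusted p between 0.00861 and 0.140. The cause was not tested.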

How the results depend on the processing

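Of 513 recomputed differences (27 differences of the 9 genes under 19 alternatives each), 497 kept their direction and their side of the threshold. The 5 that lost their call were all of TLR3 with a library left out, as given above. The 11 that turned direction were all differences without a call. For DHX58 between the siRNAs (0.0066) these were -0.0038 with DESeq2 size factors in edgeR, -0.0095 with library totals, -0.0033 with DESeq2, -0.0046 and -0.0038 with limma at pseudocounts of 0.1 and 1, -0.0021 with the filter at 1 FPKM, and -0.050 to 0.083 with a library left out. TICAM1 with siRNA.2 ranged from -0.17 to 0.038 and TRIM25 between the siRNAs from -0.045 to 0.012 with a library left out. The number of the 9 genes called was 8 with siRNA.1, 7 with siRNA.2 and 1 between the siRNAs, and 7 to 8, 7 to 7 and 0 to 1 with a library left out. With the added limit of 1 on the size of the log2 fold change it was 3, 3 and 0. A pseudocount of 1, which shrinks low genes, lowered the log2 fold changes to 0.74 and 0.87 for DDX58, 1.30 and 1.20 for ZBP1, and 0.61 and 0.61 for DHX58, with their calls kept. Over all alternatives MAVS stayed between -0.44 and -0.35 with siRNA.1 and between -0.50 and -0.43 with siRNA.2, and EIF2AK2 between 0.14 and 0.20 and between 0.21 and 0.28. Of the kinases, TRAFs and IRFs, 9 were called with siRNA.2 by edgeR and 5 by limma at either pseudocount. Between the siRNAs, limma at a pseudocount of 0.1 called 1437 of all genes where edgeR called 2603. The numbers of the libraries did not pair them, since same-numbered libraries had deviations from their group means that correlated at between -0.19 and 0.11. Differently numbered libraries of different groups correlated at between -0.078 and 0.18, and a pairing under other numbers was not tested. A replicate block by the numbers changed no call of the 9 genes, with 8, 7 and 1 called. Genes below the depth of the 9 genes, such as IRF7 and LINC00885, allow no statement on small differences. Counting errors from overlapping genes (TRIM25 with C17orf67, EIF2AK2 with GPATCH11) were not tested.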
